A study of Mus musculus with 11 samples.

Results

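The 9 genes described here encode surface proteins other than integrins that hold hematopoietic stem cells in the bone marrow niche or guide their homing to it. They were chosen by gene symbol, and all 9 of Cxcr4, Selplg, Cd44, Icam1, Vcam1, Esam, Jam3, Pecam1, and Robo4 were found among the 12647 genes of the count table and passed the filter on low counts. The transcriptome of LSKs, the Lin-Sca1+Kit+ fraction of bone marrow in which stem cells and multipotent progenitors are found, was sequenced for p53+/+, p53R248W/+, and p53-/- mice in 9 libraries, 3 per genotype. All mice had a C57BL/6 background and, by the study's methods, were young and tumor free. The labels call p53+/+ wild-type, while the methods describe these mice as HUPKI, with a humanized p53 knock-in allele under the endogenous mouse promoter. The p53R248W/+ mice carried 1 HUPKI allele with the R248W missense mutation, and the p53-/- mice lacked p53 in every cell. The humanized allele is therefore shared by p53+/+ and p53R248W/+ mice and is not stated for p53-/- mice. The sources do not say whether each library came from a separate mouse, so p-values measure only the spread between these libraries.

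Stem cells leave the blood and settle in the marrow in steps. Selectins on the vessel wall first catch carbohydrate ligands on the cell, a chemokine signal then switches the cell's integrins to a tight grip, and junction proteins of the immunoglobulin superfamily take part as the cell crosses the endothelium. In the marrow, the chemokine receptor CXCR4, the hyaluronan receptor CD44, and integrins that grip VCAM1 help to keep stem cells in place. Several of these proteins, among them ESAM, JAM3, PECAM1, and ROBO4, were known from endothelium and are also carried by stem cells.

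Total counts ranged from 18021375 to 29750702 per library. Each value below is in CPM (read counts scaled to the library total, corrected by TMM factors), and a level compared between genes is in RPKM, which also divides by gene length. Kit and Ly6a, which encode the surface proteins of the LSK gate, were read in every library, with p53+/+ means of 666 and 210.0 CPM. Kit overlapped between p53-/- and p53+/+ libraries. Ly6a was at 271 to 444 CPM in p53-/- libraries, above the 149 to 262 CPM of p53+/+ libraries. Its log2 fold change was 0.65 (adjusted p = 0.231 in edgeR's quasi-likelihood test). The p53 target Cdkn1a was lower in p53-/- libraries (8.27 to 17.8 CPM) than in p53+/+ libraries (43.6 to 67.0 CPM), with an adjusted p of 0.00914 in edgeR's quasi-likelihood test. Counts of Trp53 cannot show which part of the gene was read, and its levels of 112 to 129 CPM in p53-/- libraries check nothing. A pair of libraries stood apart. Replicate 2 of p53+/+ and replicate 2 of p53R248W/+ held 3638 and 2471 CPM summed over the neutrophil markers, against 98.8 to 430.0 CPM in the other 7 libraries. Reads of the Y-linked gene Ddx3y were seen in replicate 2 of p53+/+ and replicates 2 and 3 of p53R248W/+ (33.6, 25.1, and 64.9 CPM), and the other 6 libraries, all 3 of p53-/- among them, had at most 0.112 CPM. Xist, which is read from the inactive X chromosome, was also present in both replicate 2 libraries (64.9 CPM in p53+/+ and 149 CPM in p53R248W/+) and was at 6.26 CPM in replicate 3 of p53R248W/+, so both replicate 2 libraries held Xist and Y-linked reads together. Y-linked reads and genotype were therefore unevenly matched, and results are also given within the 6 libraries low in Y-linked reads.

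Selplg was the most abundant of the 9 transcripts per unit length. In p53+/+ libraries it reached 190.8 ± 15.3 RPKM (SD, n = 3). Icam1 (38.1 ± 6.10 RPKM), Pecam1 (36.9 ± 6.62 RPKM), Cd44 (36.6 ± 7.46 RPKM), and Esam (28.9 ± 6.17 RPKM) formed a middle group whose neighbors overlapped. Cxcr4 followed at 18.6 ± 1.03 RPKM, Robo4 at 9.79 ± 3.47 RPKM, Jam3 at 4.0 ± 1.2 RPKM, and Vcam1 at 2.64 ± 2.63 RPKM. The libraries of neighbors did not overlap between Selplg and Icam1, Esam and Cxcr4, Cxcr4 and Robo4, or Robo4 and Jam3, and they overlapped between Jam3 and Vcam1. In p53-/- libraries Esam stood second at 49.3 ± 6.43 RPKM, overlapping Cd44 at 49.1 ± 4.35 RPKM, and Pecam1 stood sixth at 18.9 ± 5.11 RPKM, while Selplg stayed first (139 ± 10.9 RPKM) and Vcam1 last (3.60 ± 1.14 RPKM). In p53R248W/+ libraries Selplg (177 ± 24.1 RPKM) and Vcam1 (2.10 ± 1.16 RPKM) held the same ends of the order.

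**Figure D1:**
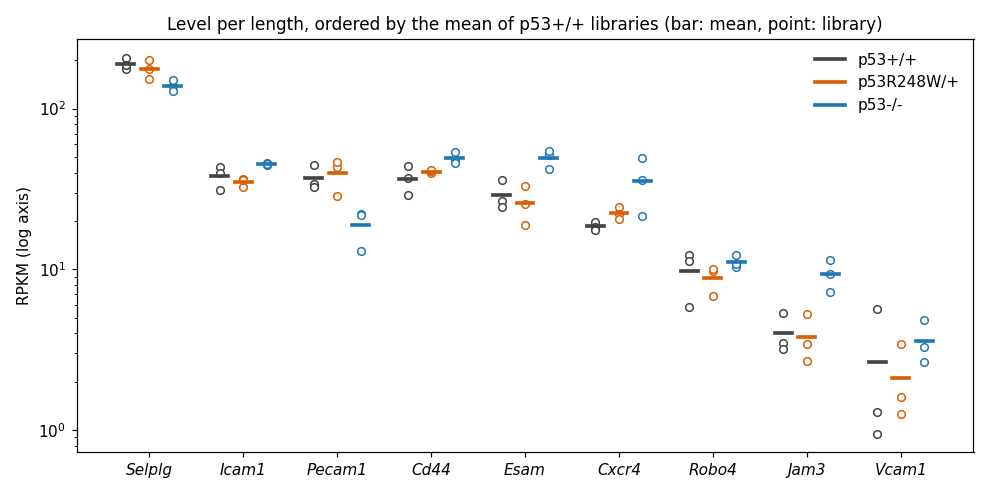
Level per length (RPKM, log axis) of the 9 genes in each library, with genes on the x axis in the order of their p53+/+ mean; points are libraries and bars are means of 3 libraries. Selplg lies above 100 RPKM and Vcam1 below 6 RPKM in every library, and Pecam1 sits lower and Esam and Jam3 higher in p53-/- than in the other genotypes.

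Over the 9 genes, 0 passed an adjusted p of 0.05 in edgeR's quasi-likelihood test for p53-/- against p53+/+, where 3.50% of the 12625 genes tested did. At an unadjusted p under 0.05 there were 6 of 9, against 23.4% of all genes, and DESeq2 called 5 of 9, against 12.6% of the 12355 genes it gave an adjusted p. The libraries of the 2 genotypes did not overlap for 7 of the 9 genes (31.4% of all genes), with p53-/- above p53+/+ in 5 (15.4%) and below in 2 (16.0%). For p53R248W/+ against p53+/+, edgeR called 0 of 9 (0.00792% of all genes, which is 1 gene), 0 had an unadjusted p under 0.05 (0.958%), and 1 did not overlap (5.04%). For p53R248W/+ against p53-/-, edgeR called 3 of 9 (3.44% of all genes), 1 higher (2.34%) and 2 lower (1.10%) in p53R248W/+. There, 6 had an unadjusted p under 0.05 (21.0%) and 7 did not overlap (24.2%). The median log2 fold change over the 9 genes was 0.42 for p53-/- against p53+/+, beside a median near 0 over all genes, and -0.11 for p53R248W/+ against p53+/+, beside 0.01. Every comparison shares its libraries with another, so the comparisons are not independent of each other. In bulk RNA, a smaller share of cells of a type and less RNA per cell cannot be told apart.

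**Figure D2:**
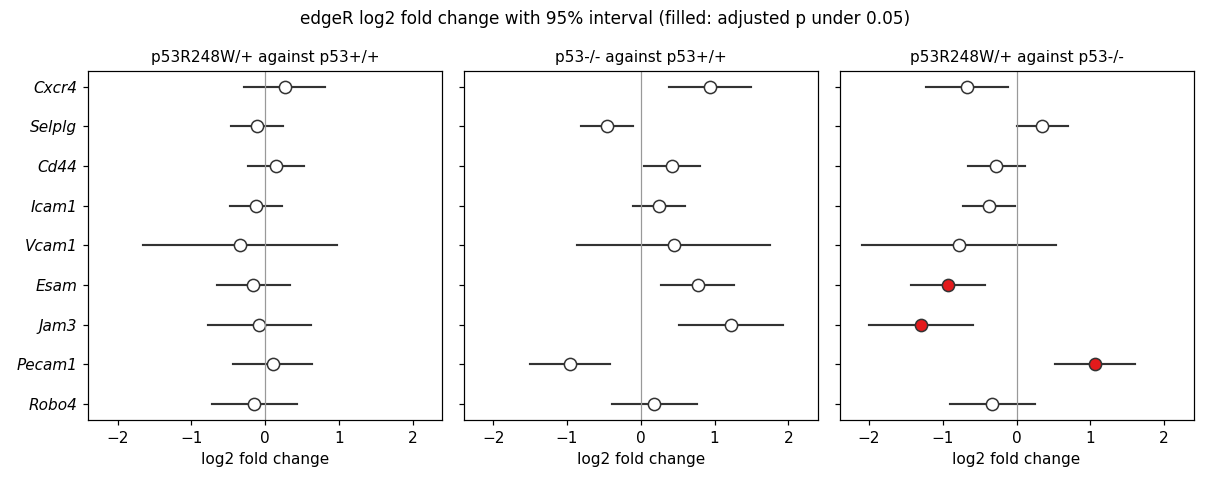
Log2 fold change of each gene in the 3 comparisons, from edgeR, with its 95% interval; filled points have an adjusted p under 0.05. The intervals for p53R248W/+ against p53+/+ all cross 0, and the filled points are Esam, Jam3, and Pecam1 for p53R248W/+ against p53-/-.

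Cxcr4 encodes the receptor for the chemokine CXCL12, the main signal that draws stem cells to the marrow and keeps them there. Its level in p53-/- libraries was 65.4, 89.3, and 39.0 CPM for replicates 1, 2, and 3. In p53+/+ libraries it was 35.8, 33.4, and 32.1 CPM, and in p53R248W/+ libraries 44.6, 39.8, and 37.2 CPM. Every p53-/- library lay above every p53+/+ library, but replicate 3 of p53-/- was close to them and lay within the p53R248W/+ range. The log2 fold change for p53-/- against p53+/+ was 0.94 (SE 0.25, 95% interval 0.38 to 1.49), and its adjusted p of 0.0607 in edgeR missed the threshold. Without replicate 3 of p53-/- the value was 1.20 (adjusted p = 0.0351 in edgeR), and without replicate 2 it was 0.63 (adjusted p = 0.175 in edgeR). Cxcr4 was also the only one of the 9 genes whose p53R248W/+ libraries did not overlap p53+/+, by 0.26 (95% interval -0.29 to 0.82, adjusted p = 1.00 in edgeR). The difference between p53R248W/+ and p53-/- was -0.67 (SE 0.25, adjusted p = 0.156 in edgeR).

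Selplg encodes PSGL-1, the glycoprotein ligand that binds P-selectin and lets cells roll on the vessel wall. It measured 361, 333, and 390.0 CPM in p53-/- libraries, 463, 541, and 488 CPM in p53+/+ libraries, and 399, 524, and 460.1 CPM in p53R248W/+ libraries. All p53-/- libraries were the lowest, and p53+/+ and p53R248W/+ overlapped. The log2 fold change was -0.46 for p53-/- against p53+/+ (SE 0.16, adjusted p = 0.115 in edgeR), a mean 1.37-fold lower. It was -0.11 for p53R248W/+ against p53+/+ (95% interval -0.46 to 0.24).

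Cd44 encodes the main receptor for hyaluronan, whose glycosylated forms also bind E-selectin. It reached 305, 269, and 258 CPM in p53-/- libraries, 248.04, 209, and 164 CPM in p53+/+ libraries, and 225, 231, and 234 CPM in p53R248W/+ libraries. The p53-/- libraries were above all others, though replicate 1 of p53+/+ lay within 10 CPM of the lowest of them, and p53+/+ and p53R248W/+ overlapped. The log2 fold change was 0.42 for p53-/- against p53+/+ (SE 0.17, adjusted p = 0.174 in edgeR), opposite in sign to that of Selplg. For p53R248W/+ against p53+/+ it was 0.15 (95% interval -0.23 to 0.53).

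The ligands of leukocyte integrins differed in how tightly they were measured. Icam1, the counter-receptor of LFA-1 and Mac-1, was at 116, 113, and 116 CPM in p53-/- libraries, a spread of 1.51% of the mean. It was at 109, 101, and 79.4 CPM in p53+/+ libraries and 93.0, 82.1, and 91.1 CPM in p53R248W/+ libraries, so p53-/- stood above both and the other genotypes overlapped. The log2 fold change was 0.25 for p53-/- against p53+/+ (95% interval -0.10 to 0.60, adjusted p = 0.372 in edgeR) and -0.12 for p53R248W/+ against p53+/+ (95% interval -0.47 to 0.23). An antisense gene, Gm47079, shares 511 exon bases with Icam1, and since the strand setting of the counting is not given in the sources used here, their reads cannot be told apart.

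Vcam1, the counter-receptor of the integrin VLA-4, is best known from stromal cells, endothelium, and macrophages of the niche. It was the lowest of the 9 genes per length, and its libraries spread widely, at 3.22, 19.3, and 4.41 CPM in p53+/+ libraries, 5.46, 11.6, and 4.30 CPM in p53R248W/+ libraries, and 8.98, 16.5, and 11.2 CPM in p53-/- libraries. All 3 genotypes overlapped, and replicate 2 was the highest in each. The log2 fold change for p53-/- against p53+/+ was 0.45 (95% interval -0.86 to 1.75, adjusted p = 0.694 in edgeR). Without replicate 2 of p53+/+ it was 1.68 (adjusted p = 0.132 in edgeR), and within the 6 libraries low in Y-linked reads also 1.68 (adjusted p = 0.0568 in edgeR). The value for p53R248W/+ against p53+/+ was -0.34, and 0.90 without that library. Replicate 2 of p53+/+ and of p53R248W/+ also had the highest sums over 10 macrophage markers, at 1200.2 and 974 CPM against 507 to 804 CPM in the other 7 libraries. Lyz2 made up most of these sums, with 1042 CPM in replicate 2 of p53+/+. The median log2 fold change of the list for p53-/- against p53+/+ was 0.78, with 6 of 10 higher, 4 lower, and 0 called. Lyz2 was among the lower ones, at -0.54 (adjusted p = 0.315 in edgeR). C1qc, a complement gene of macrophages, was at 7.62, 16.1, and 10.02 CPM in p53-/- libraries, all above the 3.07 to 7.42 CPM of p53+/+ libraries, and was highest in replicate 2 of p53-/-, as Vcam1 was in that genotype. Siglec1 and Cd14 were at 0 in at least 1 library. The part of other cells in the Vcam1 values was not tested. The genes whose log2 CPM followed that of Vcam1 most closely over the 9 libraries were Slc11a1 (Pearson r = 0.950), Pglyrp1 (r = 0.929), and Aoah (r = 0.922), of 11483 candidates. Gm43109, an antisense gene, shares 61 exon bases with Vcam1.

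**Figure D3:**
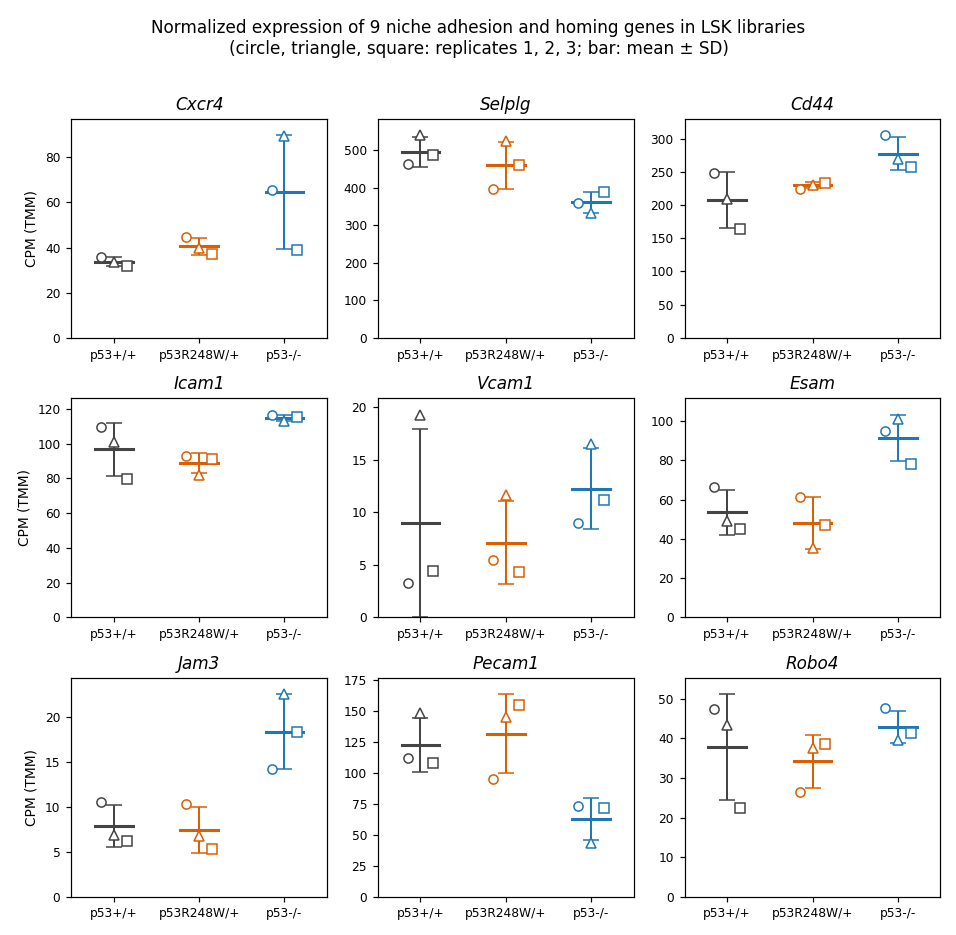
Normalized expression (CPM with TMM factors) of the 9 genes by genotype; circles, triangles, and squares are replicates 1, 2, and 3, and bars give the mean and SD of 3 libraries. The p53-/- libraries lie above all p53+/+ libraries for Cxcr4, Cd44, Icam1, Esam, and Jam3 and below them for Selplg and Pecam1, and the genotypes overlap for Vcam1 and Robo4.

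Of the 9 genes, 4 had an entry in a table of RefSeq promoters on GRCm38.p6, and for Cxcr4, Cd44, and Icam1 the 250 bases before the start site are shown, since in each of the 3 every p53-/- library lay above every p53+/+ library. The window of Robo4, the fourth, runs into the annotated gene and is not shown. Capitals mark GGGCGG, the GC box, and GGAAG, a form of the core that ETS factors bind. Both were searched on either strand (read as CCGCCC and CTTCC on the other), and no match of the 1 overlaps a match of the other. Other forms of the ETS core were not searched and are not marked. The windows are chr1:128592300-128592549 on the minus strand, chr2:102901666-102901915 on the minus strand, and chr9:21015690-21015939 on the plus strand.
Cxcr4: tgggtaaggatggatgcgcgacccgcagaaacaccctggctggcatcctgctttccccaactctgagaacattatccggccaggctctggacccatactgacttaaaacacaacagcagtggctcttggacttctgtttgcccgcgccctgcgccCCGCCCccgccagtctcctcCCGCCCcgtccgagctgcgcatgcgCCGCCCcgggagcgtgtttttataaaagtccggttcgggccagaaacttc
Cd44: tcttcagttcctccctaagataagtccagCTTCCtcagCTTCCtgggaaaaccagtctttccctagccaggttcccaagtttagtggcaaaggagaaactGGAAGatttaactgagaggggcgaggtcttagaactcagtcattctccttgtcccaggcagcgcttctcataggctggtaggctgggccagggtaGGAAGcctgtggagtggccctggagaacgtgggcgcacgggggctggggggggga
Icam1: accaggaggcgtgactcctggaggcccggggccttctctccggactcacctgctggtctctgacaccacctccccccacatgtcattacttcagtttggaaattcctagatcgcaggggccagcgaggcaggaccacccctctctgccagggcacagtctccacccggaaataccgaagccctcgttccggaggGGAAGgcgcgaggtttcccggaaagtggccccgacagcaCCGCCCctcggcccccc

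The Cxcr4 window held 3 GC boxes and 0 matches of GGAAG, that of Cd44 0 and 4, and that of Icam1 1 and 1. Over the 32851 windows of the table, 32.7% held a GC box and 64.1% a match of GGAAG. The p53 half-site, searched by its name's consensus on both strands, was found in none of these 3 windows and in 7.1% of all. An NF-kB consensus, searched in the same way, was also found in none of the 3 and in 3.9% of all. GATAA, which is not marked, had 1 match each in the Cxcr4 and Cd44 windows and 0 in that of Icam1, beside 22.6% of all windows with a match. Cxcr4 and Icam1 had 19 and 15 CpG pairs and Cd44 had 5, beside a median of 6. These matches describe the letters in the windows and say nothing of what binds there.

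Esam, Jam3, and Pecam1 encode immunoglobulin superfamily proteins of cell junctions, and they hold the 3 calls. Esam marks stem cells as well as endothelium. It reached 94.98, 101, and 78.1 CPM in p53-/- libraries, 66.6, 49.1, and 45.0 CPM in p53+/+ libraries, and 61.6, 35.2, and 47.0 CPM in p53R248W/+ libraries. The p53-/- libraries lay above all 6 others. Esam was lower in p53R248W/+ than in p53-/- by a log2 fold change of -0.93 (SE 0.23, adjusted p = 0.0489 in edgeR), or 1.91-fold. For p53-/- against p53+/+ it was 0.77 (SE 0.23, adjusted p = 0.0756 in edgeR), and for p53R248W/+ against p53+/+ -0.16 (95% interval -0.66 to 0.34).

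Jam3 encodes JAM-C, an adhesion molecule that binds JAM-B on niche cells. It measured 14.2, 22.6, and 18.4 CPM in p53-/- libraries, 10.5, 6.87, and 6.25 CPM in p53+/+ libraries, and 10.3, 6.79, and 5.30 CPM in p53R248W/+ libraries. Here too the p53-/- libraries lay above all 6 others, from counts of 112 to 500 reads per library. Jam3 was 2.46-fold lower in p53R248W/+ than in p53-/- (log2 fold change -1.30, SE 0.32, adjusted p = 0.0499 in edgeR), a value that met the threshold by a narrow margin. For p53-/- against p53+/+ the log2 fold change was 1.22 (SE 0.32, adjusted p = 0.0566 in edgeR), and for p53R248W/+ against p53+/+ -0.08 (95% interval -0.78 to 0.62). Gm48796, an antisense gene, shares 1159 exon bases with Jam3, and their reads cannot be told apart.

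Pecam1 encodes CD31, which binds itself on neighboring cells and takes part in passage through the endothelium. Unlike Esam and Jam3 it was lowest in p53-/- libraries, at 73.7, 43.5, and 72.1 CPM. It was at 113, 148, and 108 CPM in p53+/+ libraries and 95.3, 145, and 155 CPM in p53R248W/+ libraries, and no p53-/- library reached the lowest of these 6. Pecam1 was 2.09-fold higher in p53R248W/+ than in p53-/- (log2 fold change 1.06, SE 0.25, adjusted p = 0.0415 in edgeR). For p53-/- against p53+/+ the log2 fold change was -0.96 (SE 0.25, adjusted p = 0.0539 in edgeR), and for p53R248W/+ against p53+/+ 0.10 (95% interval -0.44 to 0.64).

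These 3 calls depended on single libraries. All 3 held without replicate 1 of p53R248W/+, Esam and Jam3 held without replicate 1 of p53+/+, and Pecam1 held without replicate 2 of p53+/+. Without any 1 of the other 6 libraries none was called, with adjusted p from 0.0599 to 0.184 in edgeR and the same directions. Within the 6 libraries low in Y-linked reads, which leave a single p53R248W/+ library assumed to vary like the others, the log2 fold changes shrank to 0.58 for Pecam1, -0.59 for Esam, and -0.85 for Jam3 (adjusted p = 0.377, 0.386, and 0.392 in edgeR). In the same 6 libraries the values for p53-/- against p53+/+ were 0.93 for Cxcr4, 0.71 for Esam, 1.13 for Jam3, and -0.81 for Pecam1, with adjusted p from 0.0945 to 0.130 in edgeR. For p53-/- against p53+/+, leaving out replicate 1 of p53R248W/+, which enters only the estimate of spread, brought Cxcr4, Esam, Jam3, and Pecam1 past the threshold (adjusted p = 0.0338, 0.0272, 0.0212, and 0.0158 in edgeR).

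Robo4 encodes a receptor of the Slit and Robo family that is found on endothelium and on stem cells, where it acts in homing. Its levels were 47.5, 39.6, and 41.4 CPM in p53-/- libraries, 47.4, 43.5, and 22.5 CPM in p53+/+ libraries, and 26.4, 37.5, and 38.7 CPM in p53R248W/+ libraries. Replicate 3 of p53+/+ was low, and the p53-/- libraries overlapped p53+/+ but lay above all p53R248W/+ libraries. The log2 fold change was 0.18 for p53-/- against p53+/+ (95% interval -0.40 to 0.76) and -0.08 without replicate 3 of p53+/+. It was -0.15 for p53R248W/+ against p53+/+ (95% interval -0.72 to 0.43). The members not called for p53R248W/+ against p53-/- had log2 fold changes of 0.35 for Selplg, -0.27 for Cd44, -0.37 for Icam1, -0.78 for Vcam1, -0.33 for Robo4, and, as given above, -0.67 for Cxcr4, with adjusted p from 0.156 to 0.521 in edgeR.

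The genes most like the 4 members with the smallest p-values, by Pearson r of log2 CPM over the 9 libraries among 11483 candidates, are given as a description. For Pecam1 they were Ptprc (r = 0.989), Ppp2r5e (0.976), and Phkb (0.974), for Esam F2rl3 (0.979), Acot4 (0.979), and Ube2e2 (0.978), for Jam3 Zc2hc1a (0.989), Tvp23b (0.979), and Thnsl1 (0.979), and for Cxcr4 C030034I22Rik (0.959), Tmem140 (0.959), and Wdr8 (0.952). Points of 1 genotype share what sets that genotype apart. Ptprc, which encodes the pan-leukocyte protein CD45, was itself lower in p53-/- than in p53+/+ libraries by 0.93 on the log2 scale (adjusted p = 0.0348 in edgeR). On GRCm38 (GENCODE M21), 4 of the 9 genes lie on chromosome 9, with Icam1 at chr9:21015985-21028817, Jam3 at chr9:27097384-27155421, and Robo4 (chr9:37401897-37415115) 113 kb from Esam (chr9:37528078-37538319). Esam and Robo4 are neighbors on the plus strand, and their log2 fold changes for p53-/- against p53+/+ were 0.77 and 0.18, a difference that was not tested. Pecam1 (chr11:106654217-106750628) lies on the same chromosome as Trp53, 37.1 Mb away. Cxcr4 (chr1:128588199-128592293), Cd44 (chr2:102811141-102901665), Vcam1 (chr3:116109949-116129688), and Selplg (chr5:113818536-113832644) are each alone on their chromosome.

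Partner genes of the 9 receptors were listed in 7 groups, and none of their genes was called for p53R248W/+ against p53+/+. Over all genes tested, edgeR called 3.50% for p53-/- against p53+/+ and 3.44% for p53R248W/+ against p53-/-. In the chemokine and lysophospholipid group, 10 of 12 genes were in the table. For p53-/- against p53+/+, 4 of these 10 were higher and 6 lower, and 1 was called. This was S1pr1, the receptor that draws cells out toward blood and lymph, at 62.7, 43.0, and 46.4 CPM in p53-/-, 29.9, 22.8, and 16.5 CPM in p53+/+, and 26.2, 15.4, and 22.4 CPM in p53R248W/+ libraries. Its log2 fold change was 1.13 for p53-/- against p53+/+ (SE 0.27, adjusted p = 0.0434 in edgeR) and -1.25 for p53R248W/+ against p53-/- (adjusted p = 0.0324 in edgeR). Of the 11 integrin genes, 8 were lower and 3 higher for p53-/- against p53+/+. The 1 called was Itga4, the alpha chain of the VCAM1 receptor VLA-4. It was at 37.9, 45.7, and 50.3 CPM in p53-/- libraries and between 67.1 and 85.8 CPM in the other 6, with a log2 fold change of -0.77 (SE 0.17, adjusted p = 0.0351 in edgeR) against p53+/+ and 0.80 (adjusted p = 0.0316 in edgeR) for p53R248W/+ against p53-/-. S1pr1 was thus higher and Itga4 lower in every p53-/- library than in any other library.

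Among 11 listed selectins and ligand-modifying enzymes, none was called for p53-/- against p53+/+. Fut7 and St3gal4, enzymes that build selectin ligands, had log2 fold changes of 0.15 and 0.42 for p53-/- against p53+/+ and did not pass. Among 14 adaptors, Ezr, which ties membrane proteins such as CD44 to actin, fell in p53-/- against p53+/+ by 0.92 on the log2 scale (adjusted p = 0.0371 in edgeR), and Rasgrp2, the Rap1 activator, was higher in p53R248W/+ than in p53-/- by 0.59 (adjusted p = 0.0489 in edgeR). The other adaptors, Tln1 and Fermt3 among them, were not called.

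Among 7 hyaluronan and matrix genes, 2 were called for p53R248W/+ against p53-/-. Hmmr, a second hyaluronan receptor that also acts on the mitotic spindle, was higher by 1.95 on the log2 scale (adjusted p = 0.0438 in edgeR), with p53-/- libraries at 23.4, 7.23, and 4.47 CPM and the p53R248W/+ libraries from 39.2 to 51.4 CPM. Hyal2, a hyaluronidase, had a log2 fold change of -0.82 (adjusted p = 0.0421 in edgeR). None of the 14 other immunoglobulin and junction genes in the table was called in any comparison. The closest relatives of Jam3, F11r and Jam2, had log2 fold changes of 0.97 and 1.37 for p53-/- against p53+/+ (adjusted p = 0.0770 and 0.113 in edgeR). Of 9 Slit and Robo genes, 5 were in the table and 4 were tested, with none called. Robo1 did not pass the filter. Cxcl12, Ackr3, Sele, Cdh5, Mcam, and Slit2 are not in the table under these symbols.

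**Figure D4:**
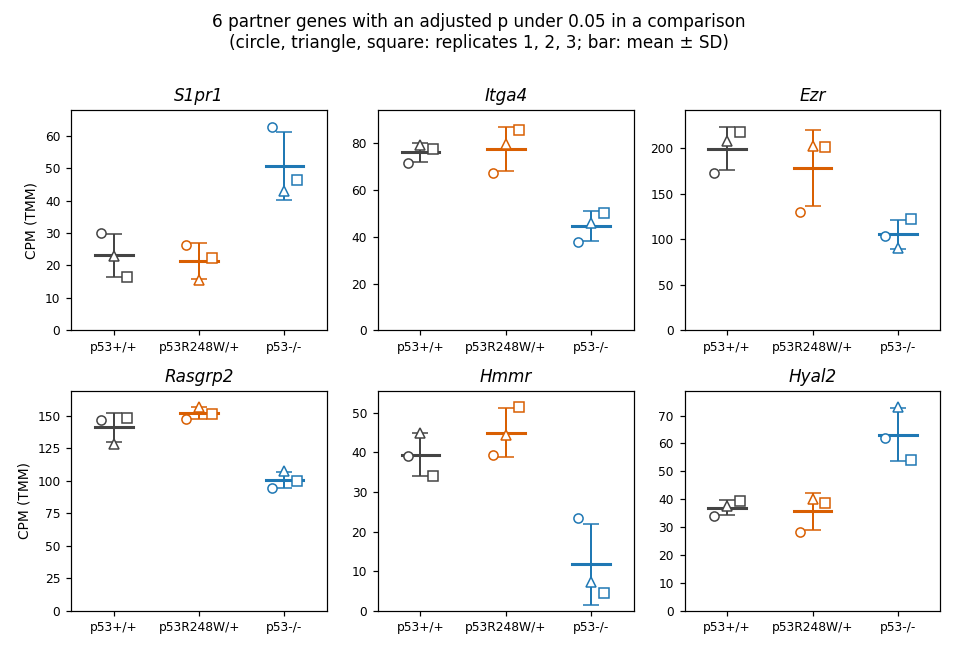
Normalized expression (CPM with TMM factors) of 6 partner genes with an adjusted p under 0.05 in a comparison; circles, triangles, and squares are replicates 1, 2, and 3, and bars give the mean and SD. S1pr1 and Hyal2 are highest and Itga4, Ezr, Rasgrp2, and Hmmr lowest in the p53-/- libraries.

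Marker lists moved with the same genotype. The sum over 12 long-term stem cell markers was 1699 to 1856 CPM in p53-/- libraries, 834 to 1194 CPM in p53+/+ libraries, and 905 to 1122 CPM in p53R248W/+ libraries, with Hlf called higher in p53-/- against p53+/+ (1.14 on the log2 scale, adjusted p = 0.0242 in edgeR) and 1 of 12 called in all. The sum over 12 multipotent progenitor markers was 5275 to 5926 CPM in p53-/-, 7835 to 8422 CPM in p53+/+, and 9110 to 11453 CPM in p53R248W/+ libraries. Mpo alone held 1125 to 1456, 1712 to 3087, and 3213 to 5776 CPM of these sums, in that order. For p53-/- against p53+/+, 10 of 12 were lower and 2 higher, with Dntt and Irf8 called lower. For p53R248W/+ against p53+/+ the median log2 fold change of the list was 0.05, with 0 called. Cell cycle genes summed to 2322 to 3404 CPM in p53-/- and 3407 to 4271 CPM in p53+/+ libraries. All 16 had a lower log2 fold change, and 2 were called, Mki67 and Top2a. Immediate early and heat shock genes, which respond to cell handling, summed to 1333 to 1794 CPM in p53-/- and 2860 to 5728 CPM in p53+/+ libraries. Of these, 11 of 12 were lower and 5 were called lower. The parts of these differences in the values of the 9 genes were not tested.

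Endothelial markers, which matter for Esam, Pecam1, and Robo4, summed to 420 to 477 CPM in p53-/-, 431 to 626 CPM in p53+/+, and 381 to 535 CPM in p53R248W/+ libraries over the 8 of 10 in the table, and they overlapped with 0 called. Of these sums, Egfl7 alone held 250 to 331 CPM in p53-/-, 289 to 469 CPM in p53+/+, and 267 to 442 CPM in p53R248W/+ libraries. For p53-/- against p53+/+, 3 of the 8 markers were higher and 5 lower. The defining endothelial genes Cdh5 and Flt1 are not in the table, and Kdr was at most 2.05 CPM. Of 8 stromal markers 2 are in the table, and Lepr, Pdgfra, and Cxcl12 are not. One of those present, the collagen gene Col1a2, was lower in p53R248W/+ than in p53-/- libraries, the comparison that holds the calls of Esam, Jam3, and Pecam1 (log2 fold change -2.44, adjusted p = 0.0281 in edgeR). Its levels were low, at 0.823 to 1.59 CPM in p53R248W/+, 2.94 to 10.6 CPM in p53-/-, and 2.39 to 3.46 CPM in p53+/+ libraries. The other of the 2, Pdgfrb, was read at higher levels and went the other way. Its log2 fold change was 0.58 for p53R248W/+ against p53-/- (adjusted p = 0.357 in edgeR) and -0.55 for p53-/- against p53+/+ (adjusted p = 0.349 in edgeR). Its range was 39.8 to 117 CPM in p53R248W/+, 39.6 to 64.6 CPM in p53-/-, and 69.5 to 101 CPM in p53+/+ libraries. The part of stromal RNA in the calls of Esam, Jam3, and Pecam1 was not tested. The 10 macrophage markers summed to 516 to 600 CPM in p53-/- and 507 to 1200 CPM in p53+/+ libraries, with 0 called. The 10 NF-kB target genes in the table, a list that holds none of the 9 receptors, summed to 471 to 546 CPM in p53-/- and 384 to 469 CPM in p53+/+ libraries. Of these, 5 were higher and 5 lower in p53-/- against p53+/+, with a median log2 fold change of 0.03 and 0 called.

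**Figure D5:**
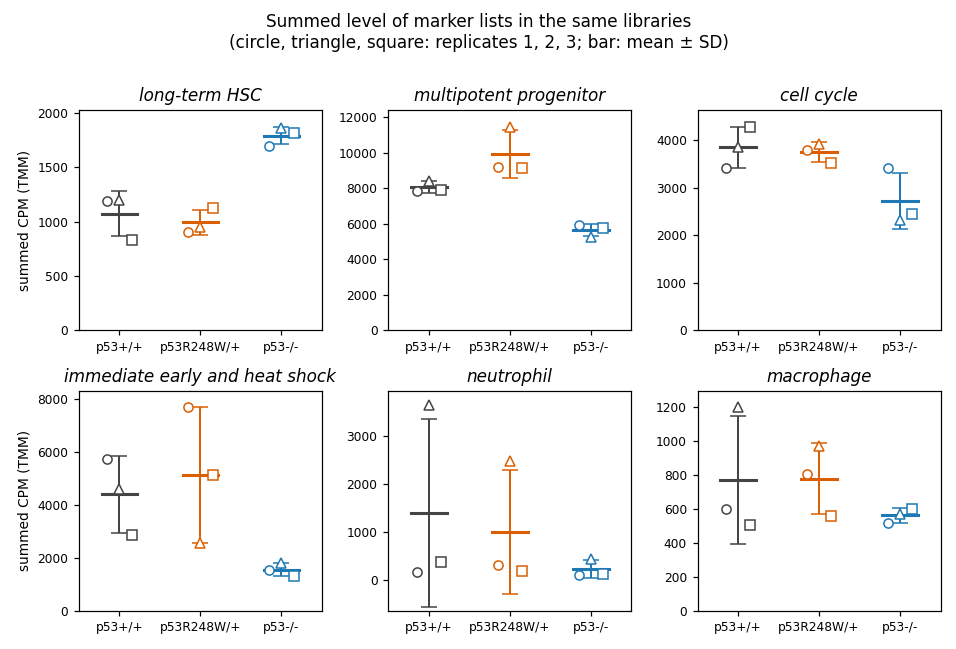
Summed level (CPM with TMM factors) of 6 marker lists by genotype; circles, triangles, and squares are replicates 1, 2, and 3, and bars give the mean and SD. The p53-/- libraries are highest for long-term stem cell markers and lowest for progenitor, cell cycle, and immediate early genes, and replicate 2 of p53+/+ and of p53R248W/+ is highest for neutrophil and macrophage markers.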

How the data were processed

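RNA-seq of LSKs from 9 libraries was analysed; 2 H3K27me3 ChIP-seq samples of the series were not analysed here. The library kit is SMART-Seq v4 by the labels, whereas the methods give oligo(dT) selection with random hexamers. The deposited table holds whole-number read counts per gene made by the authors, without normalization, and gene lengths, and 0 columns lacked a sample. Its log2 fold changes, p-values, and FDRs of the authors were not used. The submitters' processing notes name STAR 2.5.2b, featureCounts of Subread 1.5.0, edgeR, and mm10; annotation and strand setting are not given in the sources used here. The lowest gene total over the 9 libraries was 37 counts.

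Counts were tested with edgeR 4.0.16 (R 4.3.3): filterByExpr by genotype, TMM factors (0.935 to 1.04), and 1 quasi-likelihood model of the 9 libraries. All 12625 genes that passed the filter entered the Benjamini-Hochberg adjustment, with a threshold of 0.05. Intervals cover 95%. Pearson r used log2 CPM with a prior count of 2. Alternatives used DESeq2 1.42.0 and limma 3.58.1. The edgeR script was tested on simulated data. The members, lists, and tests were chosen with earlier results of these data known. Named genes were the members, genes of the partner lists with an adjusted p under 0.05, marker genes called or absent, Trp53, Cdkn1a, and the 3 genes most like each of 4 members. Vcam1's most like genes, Ptprc's value, Fut7, St3gal4, F11r, Jam2, Tln1, Fermt3, Ddx3y, Xist, C1qc, Lyz2, Pdgfrb, and the antisense genes were named after their values were seen. The results of 1 listed gene are not reported here. Listed symbols Grk2 and Nectin2 were matched to the older symbols Adrbk1 and Pvrl2. Libraries of the same replicate number did not deviate together in every pair (r from -0.108 to 0.544), and the labels name no shared batch, so the numbers were not used as pairs. Replicates of a genotype differed by more than sampling noise. Positions came from GENCODE M21 and promoter sequences from RefSeq on GRCm38.p6.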

Additional observations from a re-analysis of the deposited data

How the results depend on the processing

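Alternatives to the edgeR analysis were run on the 9 genes and on all genes, and the cause of each change was not tested except where fewer libraries were fitted. Of 513 values under the alternatives, 445 kept their direction and side of the threshold, 34 lost a call, 18 gained one, and 16 changed sign. For p53-/- against p53+/+, the 0 genes called among the 9 became 5 with DESeq2, 1 with at least 10 counts in every library, 3 with the 6 libraries of the 2 genotypes, 3 with the replicate number as a block (Cxcr4, Esam, and Jam3), and 0 to 4 when 1 library was left out. For p53R248W/+ against p53-/-, the 3 called became 0 with the 6 libraries of the 2 genotypes, 0 with a Y-linked covariate, 0 without the 2 libraries high in neutrophil markers, 0 within the 6 libraries low in Y-linked reads, and 0 to 3 when 1 library was left out. The fits without 2 libraries and within 6 libraries were chosen after seeing the data. With DESeq2's size factors, Jam3 missed the threshold (adjusted p = 0.050041 in edgeR).

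Over all genes, the 442 called for p53-/- against p53+/+ became 1552 with DESeq2, 894 with 6 libraries, 882 with the replicate block, 59 without the libraries high in neutrophil markers, 264 within the libraries low in Y-linked reads, and 37 to 1485 when 1 library was left out. The 434 for p53R248W/+ against p53-/- became 1325, 208, 672, 77, and 46 in the same order, 162 with the Y-linked covariate, and 77 to 1559 when 1 library was left out. The 1 for p53R248W/+ against p53+/+ became 6 with DESeq2, 0 with at least 10 counts, and 2 with the replicate block. In the order by RPKM in p53+/+, 2 to 4 genes changed rank when 1 p53+/+ library was left out.

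The values that changed sign were ones that missed the threshold. For p53R248W/+ against p53+/+ on the log2 scale these were Jam3 (0.071) and Pecam1 (-0.10) with the Y-linked covariate, Vcam1 (0.34) without the libraries high in neutrophil markers, and Vcam1 (0.50), Esam (0.13), Jam3 (0.28), and Pecam1 (-0.22) within the libraries low in Y-linked reads. When 1 library was left out, the values ranged from -0.39 to 0.027 for Esam, -0.41 to 0.050 for Robo4, -0.40 to 0.19 for Jam3, -0.031 to 0.28 for Pecam1, and -0.88 to 0.90 for Vcam1. For p53-/- against p53+/+, Robo4 ranged from -0.084 to 0.38. Between p53+/+ and p53R248W/+, same-numbered libraries deviated together for replicate 1 (r = 0.361) and replicate 2 (r = 0.544) but hardly for replicate 3 (r = 0.0388). Each library correlated best with its own number there. With p53-/- libraries this was not so (r from -0.108 to 0.132). The library names of p53+/+ and p53R248W/+ also share a form by replicate number, while p53-/- names have a form of their own. The labels do not say what this reflects. A separate preparation of p53-/- libraries could not be told apart from genotype.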
